A study of Homo sapiens with 16 samples.

Results

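Broad H3K4me3 domains are the widest stretches of histone H3 trimethylated at lysine 4. They were followed here in Toledo cells, an established line of diffuse large B-cell lymphoma. Peaks of the 4 H3K4me3 libraries were merged where they overlapped or touched, which gave 12970 regions. Of these, 9477 had a peak in all 4 libraries, and 568 of the 9477 were at least 4000 bp wide after merging. The 568 are the broad domains, and the remaining 8909 are called narrower regions. The choice rests on the width of the union of the 4 lists, so the H3K4me3 lengths below are a description without a test. The H3K27ac and H3K4me1 values played no part in it. Only 147 domains had at least 4000 bp covered in every list, and 123 had a single peak that long in every list, so broad refers to the union and not to each library.

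For 6 days the cells received either TP-064 at 5 uM, which blocks CARM1, an enzyme that methylates arginines, or DMSO, its solvent. Each treatment had 2 libraries for each of H3K4me3, H3K27ac and H3K4me1, and 4 inputs complete the 16 samples. All groups are the same line, so nothing here speaks of other lymphomas. By their labels the TP-064 libraries were run on lane 4 and the DMSO libraries on lane 3, and effects of lane and of treatment cannot be told apart.

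H3K4me3 is laid down around active and poised gene starts by the SET1 and MLL (KMT2) complexes. In most genes it forms a short block just downstream of the start. A minority of genes carry it over several kilobases, and in many tissues such broad domains lie on the genes that define the cell type and on tumour suppressors. H3K27ac, placed by CREBBP and EP300, marks active promoters and enhancers, and H3K4me1 flanks promoters and marks enhancers. CARM1 methylates CREBBP and EP300 among other substrates.

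The DMSO replicate 1 lists were the longest for every mark. H3K4me3 peaks numbered 10317 and 10048 in the TP-064 lists, against 12476 and 11481 in the DMSO lists. H3K27ac peaks numbered 4771 and 4595 with TP-064, against 7885 and 4016 with DMSO. H3K4me1 peaks numbered 4094 and 4242 with TP-064, against 25058 and 9673 with DMSO. Read depth is unknown, because the lists hold positions and no reads, and a base outside every peak may carry the mark below the caller's threshold. How much of any difference in covered length follows depth or enrichment was not tested.

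The sequences of 5 domain genes, picked for their values, are shown first. PAX5 held the widest domain, E2F2 the largest relative shortening and HBEGF the largest lengthening with TP-064, and RHOH and ZFP36L1 each had a start outside the H3K4me3 peaks with TP-064 and another inside them. Each window runs 5′ to 3′ on the gene's strand from 250 bases before to 50 bases after a RefSeq start on GRCh38.p14, the same assembly as hg38. Capitals mark CpG dinucleotides.
PAX5, chr9:37034219-37034518, minus strand: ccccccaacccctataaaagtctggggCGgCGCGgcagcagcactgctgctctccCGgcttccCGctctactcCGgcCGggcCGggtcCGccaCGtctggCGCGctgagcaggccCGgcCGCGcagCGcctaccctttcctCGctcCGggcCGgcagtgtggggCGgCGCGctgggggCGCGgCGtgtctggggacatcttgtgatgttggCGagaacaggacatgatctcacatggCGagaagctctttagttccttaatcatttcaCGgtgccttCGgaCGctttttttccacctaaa
E2F2, chr1:23531184-23531483, minus strand: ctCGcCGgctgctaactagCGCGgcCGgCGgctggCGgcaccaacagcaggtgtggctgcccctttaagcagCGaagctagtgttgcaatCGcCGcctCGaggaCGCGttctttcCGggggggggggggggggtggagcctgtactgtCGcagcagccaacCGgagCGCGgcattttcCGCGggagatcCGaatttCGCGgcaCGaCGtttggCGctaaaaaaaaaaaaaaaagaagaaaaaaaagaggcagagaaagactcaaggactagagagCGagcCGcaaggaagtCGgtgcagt
HBEGF, chr5:140346554-140346853, minus strand: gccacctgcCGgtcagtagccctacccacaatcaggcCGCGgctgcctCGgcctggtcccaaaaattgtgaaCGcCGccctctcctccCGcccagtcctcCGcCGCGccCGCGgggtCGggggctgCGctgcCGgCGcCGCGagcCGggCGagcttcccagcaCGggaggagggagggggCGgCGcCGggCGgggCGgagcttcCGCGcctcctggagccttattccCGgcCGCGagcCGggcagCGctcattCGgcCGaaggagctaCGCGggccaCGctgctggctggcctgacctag
RHOH, start left uncovered with TP-064, chr4:40190830-40191129, plus strand: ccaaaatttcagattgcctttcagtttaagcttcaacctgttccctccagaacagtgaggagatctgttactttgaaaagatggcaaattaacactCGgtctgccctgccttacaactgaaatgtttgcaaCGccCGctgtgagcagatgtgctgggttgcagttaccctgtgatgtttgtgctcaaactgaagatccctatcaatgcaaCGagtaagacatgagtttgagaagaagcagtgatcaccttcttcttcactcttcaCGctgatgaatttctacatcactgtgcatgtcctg
RHOH, start covered in all 4 lists, chr4:40196781-40197080, plus strand: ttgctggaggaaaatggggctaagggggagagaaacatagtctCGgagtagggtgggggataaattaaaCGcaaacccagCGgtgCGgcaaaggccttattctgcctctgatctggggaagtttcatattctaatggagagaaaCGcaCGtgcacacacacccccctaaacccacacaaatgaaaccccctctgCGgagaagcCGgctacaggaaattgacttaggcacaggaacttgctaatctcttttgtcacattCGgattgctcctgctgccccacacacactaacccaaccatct
ZFP36L1, start covered in all 4 lists, chr14:68793367-68793666, minus strand: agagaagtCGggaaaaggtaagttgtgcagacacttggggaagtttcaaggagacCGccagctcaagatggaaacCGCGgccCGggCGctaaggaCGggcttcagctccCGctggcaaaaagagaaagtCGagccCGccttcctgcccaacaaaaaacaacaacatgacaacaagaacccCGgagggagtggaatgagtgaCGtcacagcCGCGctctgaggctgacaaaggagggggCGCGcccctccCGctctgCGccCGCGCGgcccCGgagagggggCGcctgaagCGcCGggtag
ZFP36L1, start left uncovered with TP-064, chr14:68796194-68796493, minus strand: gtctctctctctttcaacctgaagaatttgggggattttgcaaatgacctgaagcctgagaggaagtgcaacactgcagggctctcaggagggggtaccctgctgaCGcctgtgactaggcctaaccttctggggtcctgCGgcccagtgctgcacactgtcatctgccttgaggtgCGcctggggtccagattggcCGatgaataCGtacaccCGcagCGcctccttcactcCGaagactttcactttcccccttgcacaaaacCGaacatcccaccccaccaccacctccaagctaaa
The windows differ in CpG content. The PAX5 window holds 30 CpGs, that of E2F2 29 and that of HBEGF 38, whereas the RHOH windows shown hold 5 and 9. The RHOH windows not shown hold 4 and 6. The covered ZFP36L1 window holds 25 CpGs and the uncovered one 9. Whether CpG content goes with cover of a start was not tested.

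Over the 809 windows of 543 genes whose start lay in a domain, the median was 27 CpGs and 65.3% G+C. The 9723 windows in narrower regions had medians of 28 CpGs and 66.3% G+C, and the 11600 windows in no region shared by the 4 lists had 9 CpGs and 57.3%. The TATA box TATAAA, read on both strands, stood in 8.65% of domain windows, in 3.93% of narrower-region windows and in 9.46% of all 22132 windows. The PAX5 window is one of those that hold it. CCGGAAG, the core bound by ETS factors, stood in 10.4% of domain windows, 22.4% of narrower-region windows and 12.8% of all windows. The shares for the GC box GGGCGG were 72.3%, 74.9% and 56.3% in the same order, and those for CCAAT 37.8%, 36.0% and 34.6%. None of the 4 motifs contains another. These are matches of letters and not bound sites, and several windows can belong to 1 gene.

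The median domain was 4662.5 bp wide and the widest 15441 bp. A protein-coding gene start lay in 453 domains (79.8%), against 77.1% of narrower regions. In 66 more (11.6%) an end of a coding gene without a strand in the tables used here lay inside, which may be its 3′ end. Another 15 held the start of a long noncoding RNA, 20 lay within a gene body and 14 between genes. Starts of 2 or more coding genes fell in 90 domains (15.8%), against 10.3% of narrower regions, and in 84 of the 90 the genes ran on opposite strands. In all, 650 coding genes had a start in a domain, or an end where no strand was given, which is 6.73% of the 9653 found in the same way in any region shared by the 4 lists.

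Many lymphoid and lymphoma genes lay in a domain. Of 42 lymphoid transcription factors with a region shared by the 4 lists, 20 (47.6%) lay in a domain, among them PAX5, EBF1, IKZF1, IKZF2, IKZF3, BCL11A, TCF3, TCF4, FOXO1, MEF2C, BACH2, IRF4 and SPIB. Germinal centre and lymphoma genes did so in 26 of 45 cases (57.8%), and immediate early and mRNA decay genes in 18 of 31 (58.1%). The share was 36.1% for splicing factors (13 of 36), and 9 of 41 cell cycle genes lay in a domain. It was 18.4% for H3K4 and H3K27 modifiers (7 of 38), 13.8% for B-cell receptor signalling (4 of 29) and 7.04% for ribosomal proteins (5 of 71). Plasma cell genes had 3 of 13 (JCHAIN, IRF4 and CD38), and the list of developmental homeobox and T-box regulators 1 of 7, SOX2, an HMG-box factor kept on that list. These lists were drawn up with earlier results of the same data known.

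Lineage markers matched the label of the line. PAX5, EBF1 and CD79B of the 8 B-cell markers lay in a domain, and 6 of the 8 had a region shared by the 4 lists. MS4A1 was narrower, at 3527 bp, and CD79A had no region shared by all 4 lists. None of 10 T and NK cell markers and none of 10 myeloid markers had such a region, and 1 of 10 epithelial and stromal markers did, outside the domains. BCL6, the germinal centre repressor, was narrower at 3500 bp, as were POU2AF1 at 3597 bp and the start of CIITA, the class II transactivator, at 2378 bp. A separate domain lay inside the CIITA gene. IRF8 had no region shared by the 4 lists.

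The minimum of 4000 bp cuts through a continuous range of widths. Just inside it were a domain in the CDHR3 gene (4000 bp), PIM1 (4001), CD38 (4002), CCNI (4003) and NAA50 (4005). Just outside were BBX (3999), ALG5 with EXOSC8 (3995), FAM76B with CEP57 (3994) and CKS2 (3993). PIM1, a serine/threonine kinase gene and frequent target of somatic hypermutation in lymphoma, had 1625 and 1734 covered bp with TP-064, against 4001 and 3745 bp with DMSO. It is therefore a domain on the strength of the DMSO lists alone.

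H3K4me3 covered less of the domains in the TP-064 libraries. The mean covered length per domain was 3964 and 3579 bp with TP-064, against 4898 and 4429 bp with DMSO, or 3771 ± 272 against 4663 ± 332 bp (SD, n = 2). In total the domains held 2.25 and 2.03 Mb with TP-064, against 2.78 and 2.52 Mb with DMSO. The 2 libraries of each treatment did not overlap in either measure. No test is given, since the domains were chosen on these lengths.

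The shortening was shared with the narrower regions. The median log2 ratio of covered length, TP-064 over DMSO, was -0.28 over the 568 domains, with quartiles of -0.49 and -0.14, and -0.27 over the 8909 narrower regions, with quartiles of -0.38 and -0.17. Over all 9477 regions the median shift was -0.27, and values called relative below are the log2 ratio minus this shift. Covered length was lower in both TP-064 lists than in both DMSO lists in 436 domains (76.8%), where 81.9% of all 9477 regions and 82.2% of narrower ones were. It was higher in both in 17 domains (2.99%), where 0.633% of all regions and 0.483% of narrower ones were, and the groups overlapped in 115. The rule used these lengths, so nothing is read from these shares.

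**Figure D1:**
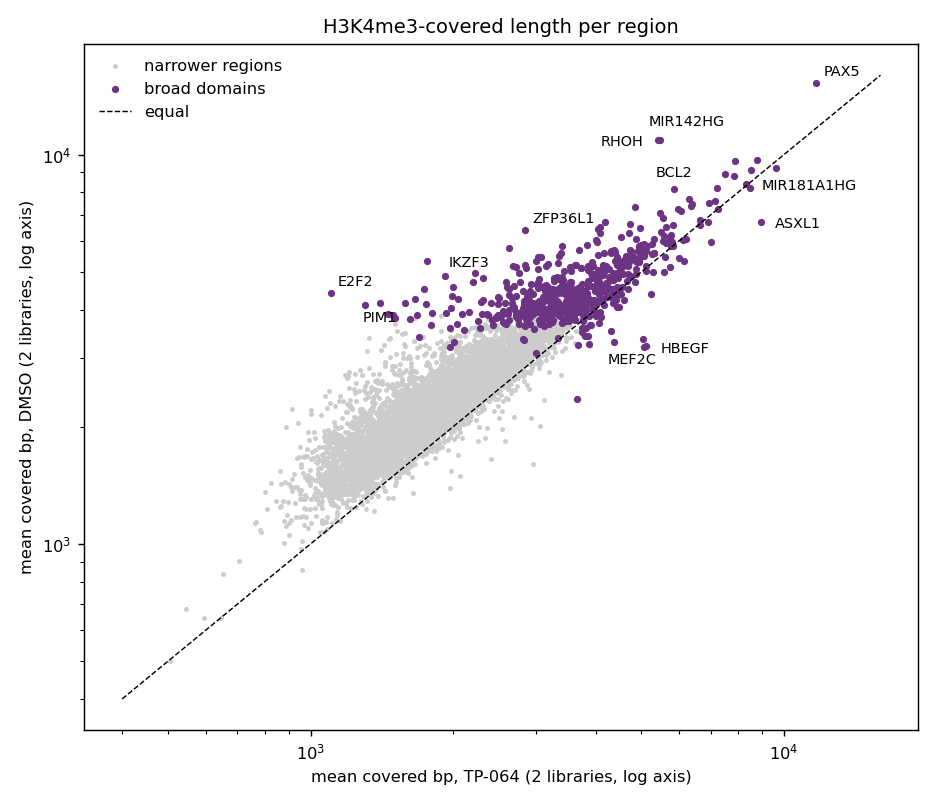
Mean H3K4me3-covered length per region in bp, TP-064 on the horizontal and DMSO on the vertical axis, both logarithmic, for 568 broad domains (purple) and 8909 narrower regions (grey). Most points lie above the dashed line of equal length, E2F2, PIM1 and ZFP36L1 far above it, and HBEGF, MEF2C and ASXL1 below it.

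After each list was divided by its median covered length over all 9477 regions, a scaling chosen after the values were seen, the domains divided about evenly. By that scaling 179 domains (31.5%) were lower in both TP-064 lists and 208 (36.6%) higher in both, where 21.7% and 30.1% of all regions were. The median scaled log2 ratio was 0.013 over the domains and 0.021 over all regions. Both shares were above those of all regions, around nearly the same centre. The scaled values come from the same lengths that the rule used, so nothing is read from these shares either.

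Within the domains the share lower in both TP-064 lists fell from each width class to the next. Covered length was lower in both TP-064 lists in 79.8% of the 371 domains of 4000 to 5000 bp, 77.8% of the 117 of 5000 to 6000 bp, 63.5% of the 63 of 6000 to 8000 bp and 52.9% of the 17 of 8000 bp or more. The median log2 ratios of these classes were -0.30, -0.26, -0.23 and -0.19. The median differences, TP-064 minus DMSO, were -748, -861.5, -870.5 and -1012.5 bp, so the loss in bp grew with width. Below the minimum the shares lower in both showed no such order. They were 77.8% under 2000 bp, 84.0% from 2000 to 3000 bp and 82.0% from 3000 to 4000 bp. The median log2 ratios of these classes, -0.272, -0.267 and -0.248, did run in the same direction. Width and covered length come from the same lists, and the widest class is thinly filled. The rule used these lengths, and a domain near the minimum can enter through the DMSO lists alone. Nothing is therefore read from this order.

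Peaks inside the domains were also more often broken with TP-064. A domain consisted of 2 or more peaks in 64 and 70 cases (11.3% and 12.3%) in the TP-064 lists, against 9 and 38 cases (1.58% and 6.69%) in the DMSO lists. The TP-064 shares were also above the DMSO shares in narrower regions, 0.393% and 0.460% of cases with TP-064, against 0.123% and 0.180% with DMSO. In 30 domains there was 1 peak in both DMSO lists and 2 or more in both TP-064 lists, and in 0 the reverse. This count was made for the domains alone and from the lists that the rule used, so nothing is read from it. The 30 include PAX5, PTCH1 (the hedgehog receptor), STIM2 (a calcium sensor of the endoplasmic reticulum), CHD2, NR3C2, HNRNPL, RRM2, NAB2 and the domain shared by STX10 and IER2, several of them picked after their values were seen. In the PAX5 domain the peaks left 1897 and 3598 bp uncovered between them with TP-064, and 0 bp in both DMSO lists.

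**Figure D2:**
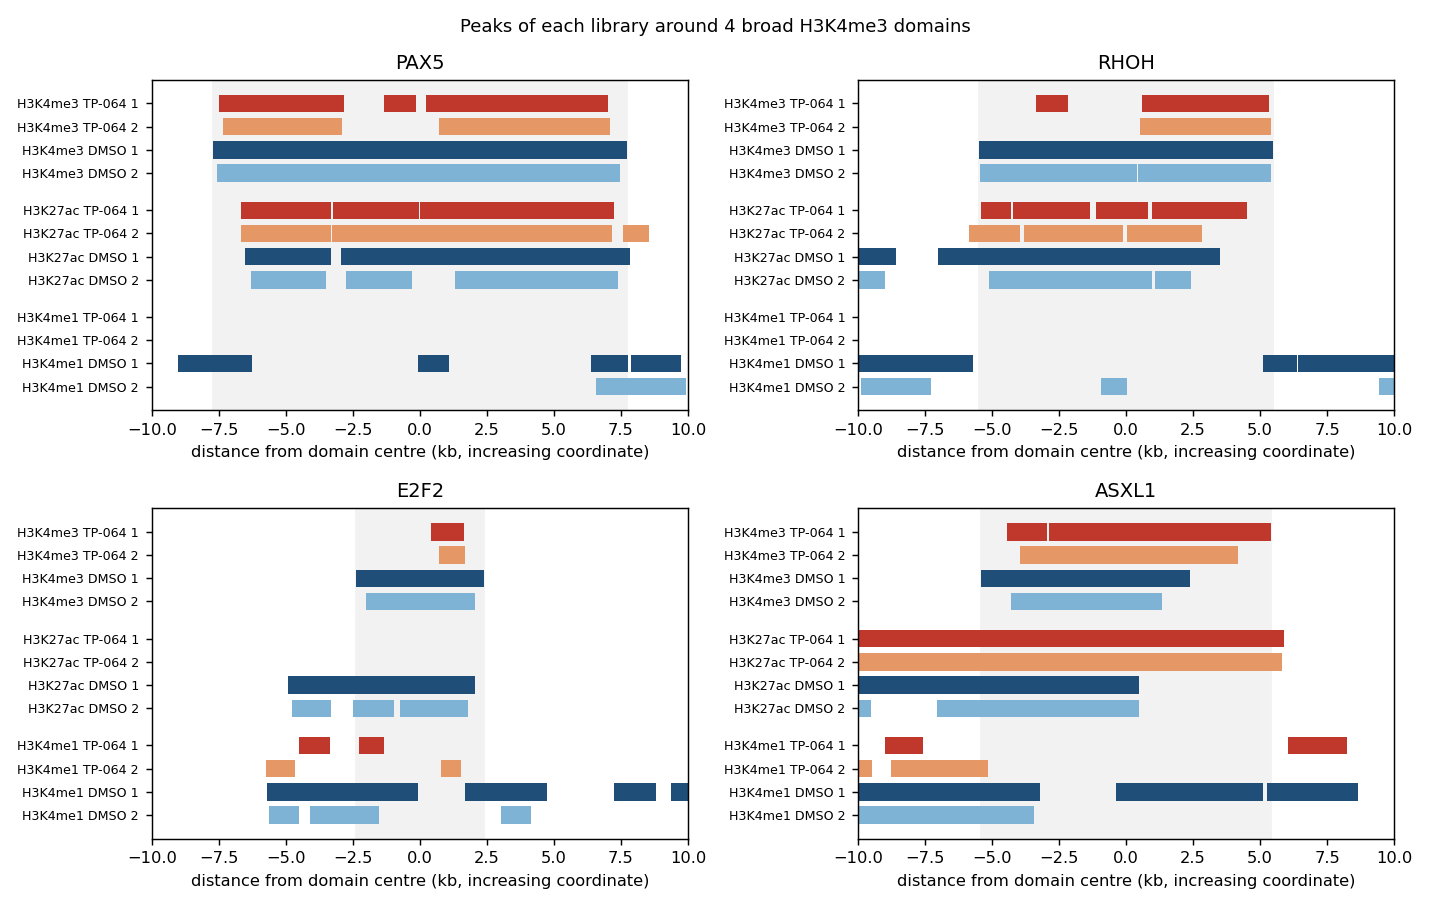
Peaks of each library within 10 kb of the centre of 4 domains (grey band), with distance in kb on the horizontal axis and 1 row per library, H3K4me3 above H3K27ac above H3K4me1 and TP-064 above DMSO. The PAX5 domain is broken and the E2F2 and RHOH domains are shorter with TP-064, H3K27ac is absent from E2F2 with TP-064, and both marks reach further to the right across ASXL1 with TP-064.

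Both sides of the domains drew in. Among 212 domains with a single coding gene and a single start, the mark reached a median of 1139 and 1003.5 bp upstream of the start with TP-064, against 1437 and 1368.5 bp with DMSO. Downstream it reached 2506 and 2270 bp with TP-064, against 3095.5 and 2715.5 bp with DMSO. The upstream reach was shorter in both TP-064 lists in 161 of the 212 (75.9%) and longer in 2. The downstream reach was shorter in both in 141 (66.5%) and longer in 11. Reach is given for these 212 domains only. Over all 9477 regions, total covered length, a different measure, was lower in both TP-064 lists in 81.9%. The median changes in the 212 domains were -255.5 bp upstream and -431.5 bp downstream. Narrower regions drew in as well: with edges taken by coordinate and not by strand, the median inward shifts of the 2 edges were 308 and 265 bp in the 568 domains, against 180.5 and 181 bp in narrower regions. In 181 domains (85.4%) the mark reached further downstream than upstream.

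**Figure D3:**
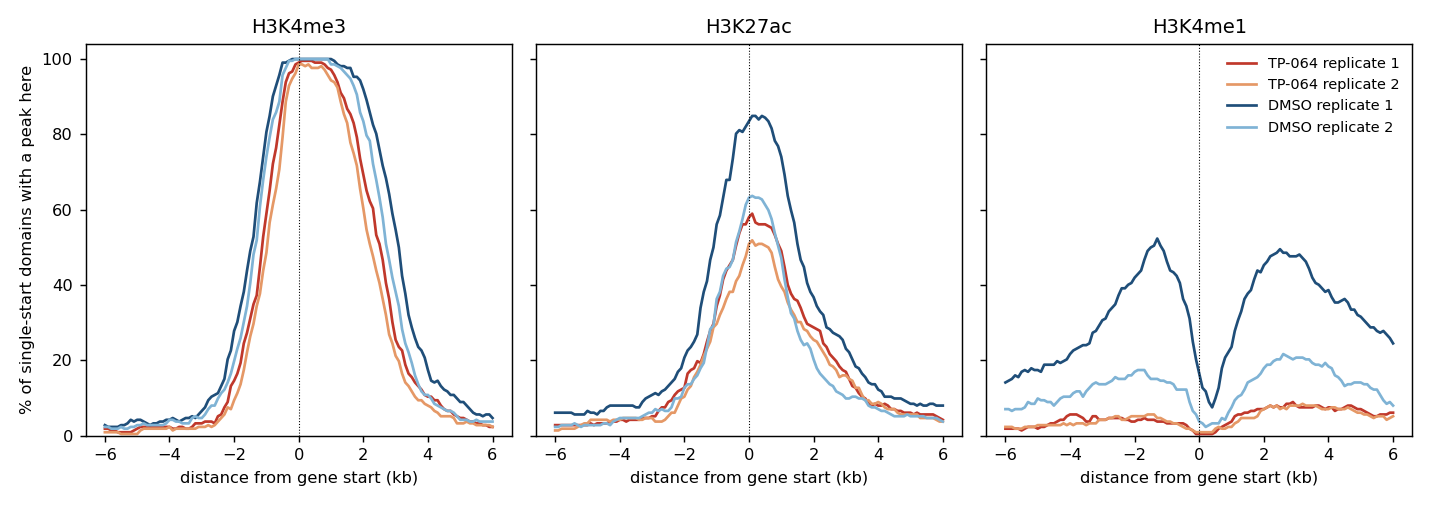
Share of the 212 domains with a peak at each distance from the gene start, in percent, for the 3 marks and each library (red and orange TP-064, dark and light blue DMSO); positive distances are downstream. H3K4me3 narrows with TP-064 on both sides while the start stays covered, and H3K4me1 shows shoulders on both sides that are highest in DMSO replicate 1.

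The start itself nearly always stayed under the mark. Of the 809 coding gene starts in domains, 96.9% and 94.8% were inside a peak with TP-064, against 99.9% and 99.6% with DMSO. In 765 (94.6%) the start was covered in all 4 lists. In 19 starts of 18 genes (2.35%) it was covered in both DMSO lists and in neither TP-064 list, against 0.843% of the 9723 starts in narrower regions, and in 0 the reverse. These 18 genes were GFI1 with 2 starts, RHOH, ZFP36L1, SMAD6, FOXO3, BCORL1, IFI16, ARHGEF2, OTUD4, ANXA2R, C6orf62, CRYBG1, ENO3, MAP2K3, SEPTIN9, SLC1A5, TMEM238 and ZNF70. They were named because of this count and not by a prior rule.

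RHOH is one of them. It encodes a signalling protein of blood cells that lacks GTPase activity. Of its 4 starts, 3 and 1 lay inside a peak in the TP-064 lists, against all 4 in both DMSO lists. The most upstream start, whose window holds 5 CpGs, was outside the peaks of both TP-064 lists. The most downstream one, whose window holds 9, was inside the peaks of all 4 lists. The starts between them, with windows of 4 and 6 CpGs, were inside a peak in TP-064 replicate 1 and not in TP-064 replicate 2.

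The PAX5 domain had the largest covered length in each of the 4 lists. PAX5, the factor that commits cells to the B lineage, had 12587 and 10841 covered bp with TP-064, against 15441 and 15026 bp with DMSO, at chr9:37023333-37038773. Both TP-064 values were below both DMSO values, by a log2 ratio of -0.38, or -0.11 relative to the median region. H3K27ac covered 13793 and 13976 bp of it with TP-064, against 13880 and 11344 bp with DMSO, so that mark overlapped between the groups.

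**Figure D4:**
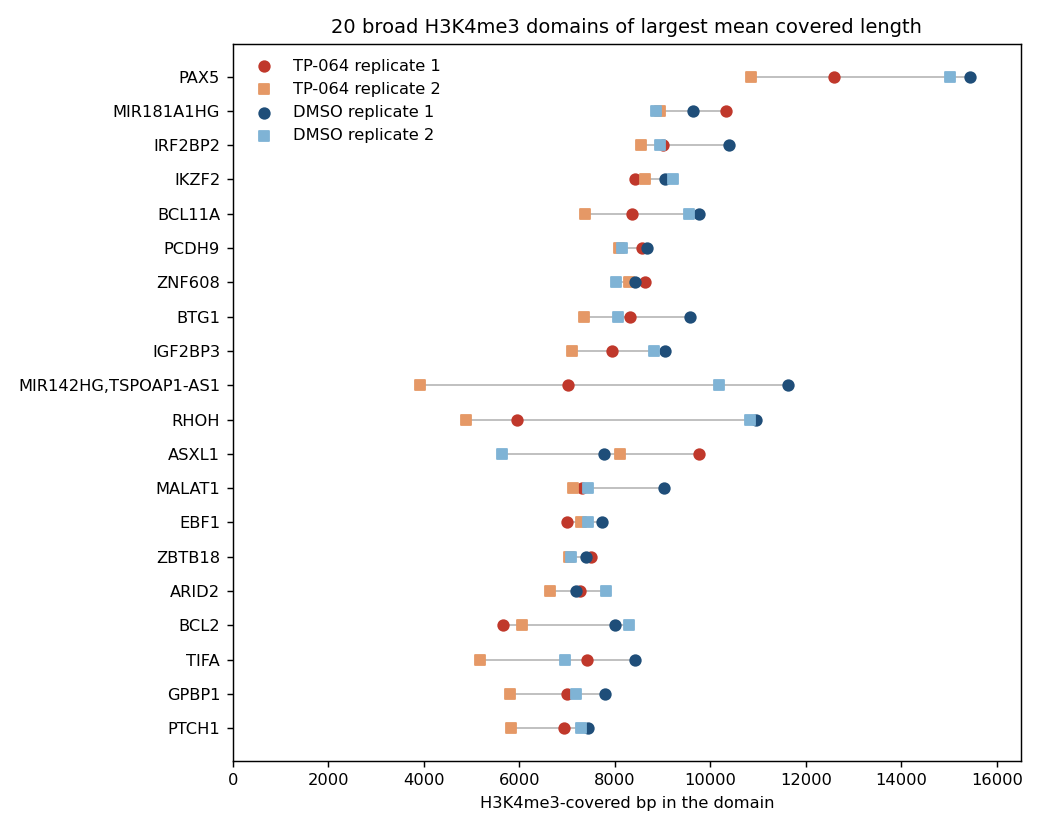
H3K4me3-covered bp in each library for the 20 domains of largest mean covered length, the largest at the top (red and orange TP-064, dark and light blue DMSO, circles replicate 1, squares replicate 2). RHOH and MIR142HG are far shorter in both TP-064 libraries, and ASXL1 is longer in both.

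BCL11A, a zinc finger factor needed for B-cell development, had 8356 and 7380 bp with TP-064, against 9771 and 9545 bp with DMSO. Its log2 ratio of -0.30 was -0.03 relative to the median region. EBF1, which acts upstream of PAX5, had 7003 and 7283 bp with TP-064, against 7740 and 7440 bp with DMSO. This small deficit turned round once the lists were scaled, to a log2 ratio of 0.20 with both TP-064 values above both DMSO values. IKZF2, the Ikaros family factor Helios, had 8427 and 8638 bp with TP-064, against 9056 and 9212 bp with DMSO, and also turned round with scaling, to 0.19.

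Several other wide domains had log2 ratios between -0.25 and 0.06. MIR181A1HG, the host transcript of a pair of miR-181 genes, had 10319 and 8935 bp with TP-064, against 9634 and 8863 bp with DMSO. The corepressor gene IRF2BP2 had 9014 and 8537 bp with TP-064, against 10393 and 8948 bp with DMSO. For BTG1, an antiproliferative gene that acts through mRNA deadenylation, the values were 8321 and 7346 bp with TP-064, against 9567 and 8058 bp with DMSO. The groups overlapped in MIR181A1HG, IRF2BP2 and BTG1. They overlapped too in PCDH9 (a protocadherin), ZNF608 and ZBTB18 (zinc finger genes), with log2 ratios of -0.02, 0.04 and 0.01. MALAT1, an abundant nuclear RNA, and IGF2BP3, an mRNA-binding protein, had ratios of -0.19 and -0.25 with both TP-064 values below both DMSO values.

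A pair of wide domains stood out by their loss. RHOH had 5950 and 4889 bp with TP-064, against 10959 and 10836 bp with DMSO, a log2 ratio of -1.01 (-0.74 relative). Its domain ranked 35 and 53 by covered length in the TP-064 lists, against 3 and 2 in the DMSO lists. The domain of MIR142HG and TSPOAP1-AS1 had 7009 and 3928 bp with TP-064, against 11632 and 10180 bp with DMSO, a log2 ratio of -0.73 relative to the median region. H3K27ac did not follow in either. It covered 9456 and 8041 bp of the RHOH domain with TP-064, against 8988 and 7413 bp with DMSO, and 10840 and 10586 bp of the MIR142HG domain with TP-064, against 11485 and 10022 bp with DMSO.

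The MIR142HG domain contains the hairpin of miR-142, a miRNA abundant in blood cells. Its mature arms are shown from RefSeq with the seed, bases 2 to 8, in capitals.
hsa-miR-142-3p: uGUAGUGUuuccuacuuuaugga
hsa-miR-142-5p: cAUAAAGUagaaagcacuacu
hsa-let-7i-5p: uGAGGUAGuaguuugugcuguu
hsa-miR-191-5p: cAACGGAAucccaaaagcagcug
The last pair come from other domains, and the 4 seeds differ from one another. In all, 12 of 1562 miRNA hairpins lay in 11 domains. They include MIR191 and MIR425 in the domain of DALRD3 and NDUFAF3, MIR1281 at EP300, MIR4530 at ZFP36, and MIRLET7I. The lists measure the mark over these hairpins and not the miRNAs.

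ASXL1, a Polycomb-associated gene often mutated in myeloid disease, held the widest domain that was longer in both TP-064 lists. It had 9769 and 8106 bp with TP-064, against 7775 and 5630 bp with DMSO, a log2 ratio of 0.42 (0.68 relative). H3K27ac covered all 10819 bp of the domain in both TP-064 lists, against 5906 and 5903 bp in the DMSO lists. H3K4me1 ran the other way, with 0 and 261 bp with TP-064, against 7857 and 1956 bp with DMSO.

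E2F2 had the lowest ratio of all domains. The gene encodes an E2F factor that drives S-phase genes, and its domain lies at chr1:23527323-23532078. H3K4me3 covered 1244 and 961 bp of it with TP-064, against 4756 and 4046 bp with DMSO, a log2 ratio of -1.73 relative to the median region. The start, in the window shown above, stayed inside the peaks of all 4 lists. H3K27ac covered 0 bp in both TP-064 lists, against 4435 and 3969 bp in the DMSO lists.

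The next lowest were CRYBG1 (log2 ratio -1.66), ANXA2R (-1.59), SMAD6 (-1.56), PRPF6 (-1.42), GFI1 (-1.39), ANG with RNASE4 (-1.38), TP63 (-1.37), ARHGAP4 (-1.36) and LIMD1 (-1.35). SMAD6, an inhibitor of BMP signalling, had 1537 and 1270 bp with TP-064, against 4452 and 3847 bp with DMSO. GFI1, a transcriptional repressor of blood cells, had 1709 and 1459 bp with TP-064, against 4346 and 3961 bp with DMSO. Neither SMAD6 nor GFI1 had an H3K27ac peak in any list. ANXA2R and ARHGAP4, in contrast, had one in all 4. These 10 domains have TP-064 lengths well below 4000 bp and entered through the DMSO lists.

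HBEGF had the highest ratio. It encodes a heparin-binding ligand of the EGF receptor, and its domain at chr5:140341739-140347808 had 5817 and 4415 bp with TP-064, against 3500 and 2941 bp with DMSO. The log2 ratio was 0.67 (0.93 relative). H3K27ac covered 2066 and 1703 bp with TP-064, against 0 bp in both DMSO lists. A domain inside the PROX1 gene, which encodes a homeodomain factor, was much alike. It had 5826 and 4279 bp with TP-064, against 3303 and 3118 bp with DMSO, and its H3K27ac covered 2566 and 2655 bp with TP-064, against 0 bp in both DMSO lists.

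A domain inside RAG1, the recombinase gene of antigen receptor assembly, had 4931 and 5125 bp with TP-064, against 3933 and 2792 bp with DMSO. MEF2C, a factor of germinal centre B cells, had 4410 and 4321 bp with TP-064, against 3606 and 2981 bp with DMSO, a log2 ratio of 0.41 (0.67 relative). After ASXL1 and MEF2C came KANSL1L (0.29), BEST3 (0.26), MEX3C (0.23), MAN1A1 (0.21) and ZNF394 (0.18). TNFAIP3, the A20 inhibitor of NF-kB signalling, had 5882 and 5634 bp with TP-064, against 5488 and 4811 bp with DMSO, a log2 ratio of 0.16. MME, which encodes the germinal centre marker CD10, had 4484 and 4446 bp with TP-064, against 4269 and 4429 bp with DMSO, so the groups were apart by only 17 bp.

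The lymphoid transcription factors held 23 domains. As deposited, 17 (73.9%) were lower in both TP-064 lists and 1 (MEF2C) higher, with a median log2 ratio of -0.22, and after scaling 6 were lower and 11 higher. Of the domains of all coding genes 76.7% were lower as deposited, with a median of -0.27, and of all 9477 regions 81.9%. After scaling, 31.5% of all domains were lower and 36.6% higher, and 21.7% and 30.1% of all regions. IKZF3, the Ikaros family factor Aiolos, had 2721 and 2461 bp with TP-064, against 4531 and 4898 bp with DMSO, a log2 ratio of -0.86. SPIB, an ETS factor of B cells, had 3291 and 2489 bp with TP-064, against 4762 and 3968 bp with DMSO. BACH2, a repressor of plasma cell differentiation, had 3667 and 2866 bp with TP-064, against 5167 and 4287 bp with DMSO. IKZF3, SPIB and BACH2 stayed lower in both TP-064 lists after scaling.

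IKZF1 and IRF4 had log2 ratios of -0.37 and -0.22, and FOXO1 -0.07 with overlapping groups. TCF4, an E protein, held 3 domains with ratios of -0.40, -0.66 and 0.07. The second of these had 4946 and 1725 bp with TP-064, against 5432 and 5106 bp with DMSO, so most of that difference lies in TP-064 replicate 2.

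Of the 26 domains of germinal centre and lymphoma genes, 20 (76.9%) were lower in both TP-064 lists and 2 (TNFAIP3 and MME) higher, with a median of -0.24, and after scaling 9 were lower and 13 higher. The share lower as deposited was 76.8% over all domains and 81.9% over all regions. After scaling, 31.5% of all domains were lower and 36.6% higher, and 21.7% and 30.1% of all regions. BCL2, the survival gene, had 5656 and 6055 bp with TP-064, against 8005 and 8298 bp with DMSO, a log2 ratio of -0.48. CXCR4, the receptor that holds cells in the dark zone of the germinal centre, had 6202 and 5334 bp with TP-064, against 5919 and 5750 bp with DMSO, and the groups overlapped. ZEB2, DTX1 and ETV6 had ratios of -0.28, -0.31 and -0.13, BTG2 0.05, and CD74, the invariant chain, -0.21.

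Immediate early and mRNA decay genes held 18 domains, 13 (72.2%) lower in both TP-064 lists, where 76.8% of all domains and 81.9% of all regions were, and 0 higher. The median was -0.20. After scaling 5 were lower and 8 higher, where 31.5% and 36.6% of all domains and 21.7% and 30.1% of all regions were. JUNB, a subunit of AP-1, had 3070 and 3266 bp with TP-064, against 5290 and 5208 bp with DMSO. FOSL2, another AP-1 subunit, had 2183 and 1432 bp with TP-064, against 4100 and 3754 bp with DMSO, a log2 ratio of -1.12. ZFP36L1, which destabilises mRNAs with AU-rich elements, had 2930 and 2738 bp with TP-064, against 7294 and 5523 bp with DMSO, a log2 ratio of -1.18 (-0.91 relative). Its 2 relatives differed less. ZFP36L2 had a ratio of -0.16 with overlapping groups. ZFP36 had 4028 and 2156 bp with TP-064, against 4391 and 4223 bp with DMSO, a difference that lies mostly in TP-064 replicate 2. MCL1, DUSP6, NR4A3 and TOB2 lay between -0.26 and -0.17.

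Of the 9 cell cycle domains, 8 (88.9%) were lower in both TP-064 lists, where 76.8% of all domains and 81.9% of all regions were, and 0 higher. The median was -0.45. After scaling 5 were lower and 2 higher, where 31.5% and 36.6% of all domains were. Besides E2F2 they include RRM2, a subunit of ribonucleotide reductase, with 3249 and 2813 bp with TP-064, against 5199 and 4962 bp with DMSO. CDKN1B, the inhibitor p27, had 3809 and 3452 bp with TP-064, against 5739 and 4648 bp with DMSO. CDK6, a G1 kinase, had 5245 and 4678 bp with TP-064, against 5551 and 5395 bp with DMSO, and turned round with scaling, to 0.14. H3K27ac was absent from both TP-064 lists and present in both DMSO lists in 4 of the 9 (E2F2, RRM2, E2F3 and MCM4), where this held for 7.75% of all domains and 6.09% of all regions.

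All 13 splicing factor domains were lower in both TP-064 lists, where 76.8% of all domains and 81.9% of all regions were, with a median of -0.33. After scaling 4 were lower and 2 higher, where 31.5% and 36.6% of all domains were. HNRNPA2B1, the longest, had 6026 and 6104 bp with TP-064, against 7405 and 6899 bp with DMSO. The 7 H3K4 and H3K27 modifiers were likewise all lower as deposited, against the same shares, with a median of -0.29, and after scaling 3 were lower and 3 higher. KMT2A, a writer of H3K4 methylation, had 3077 and 2936 bp with TP-064, against 4555 and 4710 bp with DMSO. EP300 had 3219 and 2960 bp with TP-064, against 4321 and 3673 bp with DMSO, and EZH2, the H3K27 methyltransferase, had a ratio of -0.21 that turned round with scaling.

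The 4 B-cell receptor signalling domains (CD79B, PIK3AP1, PIK3CD and SYK) were all lower in both TP-064 lists, where 76.8% of all domains and 81.9% of all regions were, with a median of -0.41, and after scaling 3 were lower. The 5 ribosomal protein domains were also all lower, with a median of -0.44, and after scaling 2 were lower and 1 higher. By that scaling 31.5% of all domains were lower and 36.6% higher, and 21.7% and 30.1% of all regions. RPL28 had 2134 and 1872 bp with TP-064, against 4607 and 4561 bp with DMSO. SOX2 had 5709 and 5489 bp with TP-064, against 5490 and 5441 bp with DMSO, and the groups overlapped by 1 bp.

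H3K27ac was far more common in domains than in narrower regions in every library. It had a peak in 68.3% and 64.3% of domains with TP-064, against 89.3% and 69.7% with DMSO. Among narrower regions the shares were 15.9% and 13.3% with TP-064, against 40.2% and 19.1% with DMSO. The domains exceeded the narrower regions by 49.0 to 52.4 percentage points in the 4 libraries, higher in 4 of 4, with a two-sided exact sign-flip p of 0.125, the smallest that 4 libraries allow. A wider region has more room for a peak, so the covered share is set beside it. H3K27ac covered 40.4% and 36.8% of domain bp with TP-064, against 58.4% and 38.2% with DMSO, and exceeded narrower regions by 26.8 to 31.6 points, with the same p.

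Between treatments the difference in H3K27ac rested on one DMSO library. The share of domains with a peak was 66.3 ± 2.86% with TP-064 and 79.5 ± 13.8% with DMSO (SD, n = 2), a difference of -13.2 points with a two-sided exact permutation p of 0.33, the smallest that 2 against 2 allows. Without DMSO replicate 1, which also leaves 381 domains when they are chosen again, the difference was -1.57 points. Over the same 568 domains DMSO replicate 2 alone had 69.7%, against the TP-064 mean of 66.3%. The covered share differed by -9.73 points, with an exact permutation p of 0.667, because the second DMSO library lay between the TP-064 libraries, and by 1.84 points in the 381 domains chosen without DMSO replicate 1. The share of domains with a peak differed by -15.0 points in narrower regions, and the excess of domains over narrower regions differed by 1.84 points between treatments, with an exact permutation p of 0.33. No difference in H3K27ac between treatments passed a test, and the design could not give one.

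**Figure D5:**
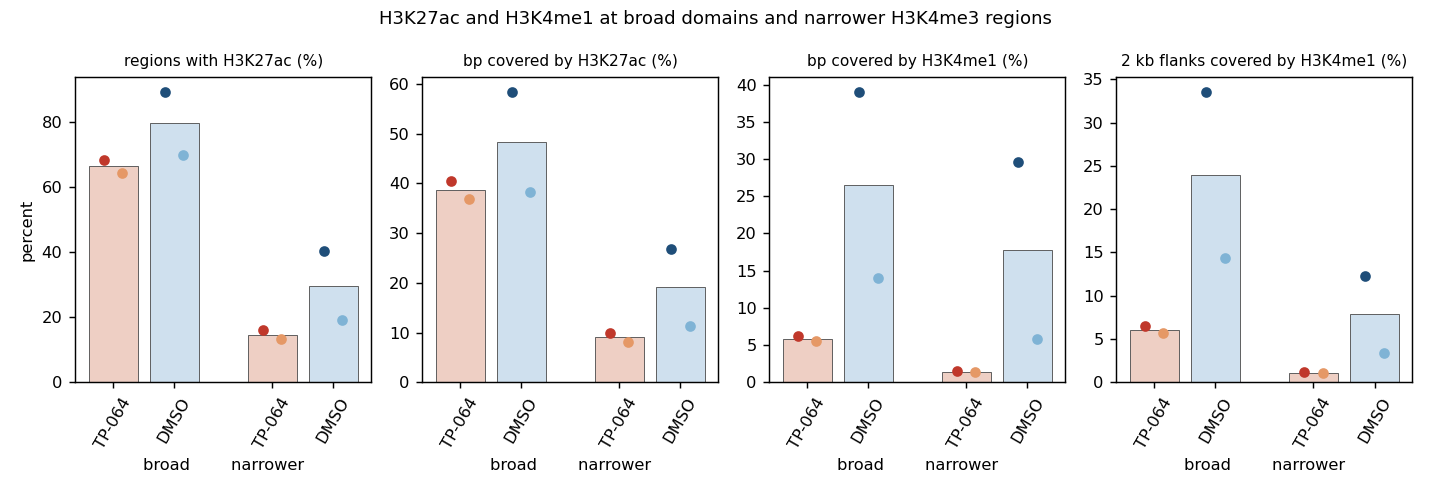
H3K27ac and H3K4me1 at broad domains and narrower regions, in percent of regions or of bp, with TP-064 left of DMSO. Points are libraries (red and orange TP-064, dark and light blue DMSO) and bars are means of 2; domains are above narrower regions in each library, and DMSO replicate 1 is the highest throughout.

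By presence of a peak, 305 domains (53.7%) had H3K27ac in all 4 lists, where 10.3% of all 9477 regions did. The share grew with width, at 44.5% of domains of 4000 to 5000 bp and 94.1% of those of 8000 bp or more. In 44 domains (7.75%) H3K27ac was in both DMSO lists and in neither TP-064 list, where 6.09% of all regions were so. Set against the 392 domains with H3K27ac in both DMSO lists, the lost share was 11.2%, where it was 28.9% of the 1997 such regions at large. In 5 domains (0.880%) the mark was gained, where 0.369% of all regions gained it, and 44 domains (7.75%) had none in any list, where 54.1% of all regions had none.

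The lost domains of largest covered length were ZNFX1, BCL2L11, ZFP36L1, NPAT with ATM, SAP30, TRIB1, EGLN1, SERBP1, KLF10 and IFT80 with SMC4. BCL2L11 encodes the pro-apoptotic protein BIM. H3K27ac covered 0 bp of its domain in both TP-064 lists, against 1945 and 916 bp in the DMSO lists, while H3K4me3 covered 3707 and 3667 bp with TP-064, against 5833 and 5543 bp with DMSO. At ZFP36L1 H3K27ac covered 0 bp in both TP-064 lists, against 4414 and 1815 bp in the DMSO lists. KLF10, a zinc finger factor of the TGF-beta response, lost H3K27ac with almost no difference in H3K4me3, which covered 4110 and 4057 bp with TP-064, against 4301 and 4208 bp with DMSO.

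The 5 gained domains were ZBTB7B, HBEGF, the domain inside PROX1, INTS13 with FGFR1OP2, and RGS2. RGS2 encodes a regulator of G protein signalling. H3K27ac covered 2294 and 2877 bp of its domain with TP-064, against 0 bp in both DMSO lists, and its H3K4me3 groups overlapped. ZBTB7B, a zinc finger factor, had less H3K4me3 with TP-064, 4255 and 3410 bp, against 6338 and 5407 bp with DMSO, so its gain of H3K27ac went with a shorter H3K4me3 domain. Domains without H3K27ac in any list include ZNF516, SIN3A, CDK6, NR3C2, CPEB2, SMARCA2, MEIS2 and BCORL1. SIN3A, a corepressor scaffold, had 3865 and 4307 bp of H3K4me3 with TP-064, against 6608 and 6462 bp with DMSO. CPEB2, an mRNA-binding protein, had 4808 and 4661 bp with TP-064, against 4963 and 4822 bp with DMSO.

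The change in H3K4me3 length differed between the H3K27ac states of the domains. The median log2 ratio of H3K4me3 length was -0.02 over the 5 domains that gained H3K27ac, -0.23 over the 305 that had it in all lists, -0.30 over the 170 mixed ones, -0.37 over the 44 without it and -0.46 over the 44 that lost it. Covered length was lower in both TP-064 lists in 40 of the 44 that lost it (90.9%) and in 41 of the 44 without it (93.2%). The same held for 137 of the 170 mixed ones (80.6%) and 217 of the 305 that had it in all lists (71.1%). Over all domains this share was 76.8%, and over all 9477 regions 81.9%. After scaling the counts lower in both were 27, 21, 51 and 79 for lost, without, mixed and all lists. In the same order 7, 12, 58 and 129 were higher in both. By that scaling 31.5% of all domains were lower and 36.6% higher, and 21.7% and 30.1% of all regions. Domains with H3K27ac in all lists were also wider, with a median of 4875 bp. The medians were 4442.5 bp for lost, 4351 bp for those without it and 4477.5 bp for mixed. The H3K4me3 and H3K27ac libraries of a treatment share a lane, and domains are not replicates, so this is a description. The rule used these H3K4me3 lengths, so nothing is read from these shares.

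H3K4me1 was much scarcer at the domains in the TP-064 lists. It covered 6.19% and 5.49% of domain bp with TP-064, against 39.1% and 14.0% with DMSO, a difference of -20.7 points with a two-sided exact permutation p of 0.33, the smallest possible. In the 2 kb on either side it covered 6.45% and 5.72% with TP-064, against 33.6% and 14.4% with DMSO, a difference of -17.9 points with the same exact p. Both TP-064 libraries were below both DMSO libraries in each measure. A peak was present in 16.7% and 15.5% of domains with TP-064, against 79.2% and 36.3% with DMSO. In the 381 domains chosen without DMSO replicate 1 the differences were -6.39 and -9.01 points. Narrower regions showed the same direction: H3K4me1 covered 1.48% and 1.36% of their bp with TP-064, against 29.7% and 5.79% with DMSO, a difference of -16.3 points with the same exact p.

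The lengths of the H3K4me1 lists move with this result. Cut to their widest 4094 peaks, as many as the shortest holds, the lists covered 6.19% and 5.43% of domain bp with TP-064, against 16.3% and 10.1% with DMSO. At that equal length a peak was present in 16.7% and 15.1% of domains with TP-064, against 28.2% and 22.7% with DMSO. By presence in the full lists, 105 domains (18.5%) had H3K4me1 in both DMSO lists only, where 8.57% of all 9477 regions did, and 0 had it in both TP-064 lists only, where 0.0211% of all regions did. It was in all 4 lists at 49 domains (8.63%), where 1.77% of all regions had it, and in none at 115 (20.2%), where 46% of all regions had none.

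H3K4me1 stood beside the start rather than on it. At the start of the 212 single-start domains it was found in 0.472% and 0.943% of domains with TP-064, against 16.5% and 3.77% with DMSO. At 3 kb downstream it was found in 8.02% and 8.02% with TP-064, against 47.6% and 20.8% with DMSO. At PAX5 H3K4me1 covered 0 bp of the domain in both TP-064 lists, against 3922 and 1138 bp in the DMSO lists. At RHOH it covered 0 bp in both TP-064 lists, against 373 and 969 bp in the DMSO lists.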

How the data were processed

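Chromatin immunoprecipitation followed by sequencing mapped 3 histone marks. The submitters' processing notes name Bowtie 1.1.2, MACS 1.4.2 and hg38. How peaks were thresholded and reads filtered, and whether inputs entered the calling, is not given in the sources used here. Input files were not analysed here. For each ChIP library the authors deposited a separate list of peak positions in 3 columns (chromosome, start, end), with no height, score or read count. Starts were taken as counted from 0. No list held peaks in common with another to the base, and each library counts as 1 replicate. Whether the 2 libraries of a group stem from separate cultures is not stated, and p-values then reflect the spread between libraries alone, which may be technical.

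Peaks were merged with an overlap of at least 1 bp or touching ends (Python 3.11.15, numpy 2.4.6, pandas 2.3.3), and the code was tested on simulated lists. H3K4me3 lengths received no test. Shares of domains or bp with another mark were compared by two-sided exact permutation over the 6 assignments of 4 libraries, and domains with narrower regions by exact sign flips over the 4 libraries.

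Gene starts come from RefSeq promoter windows of GRCh38.p14, which gave a start for 15812 of 19974 coding genes. For the other 4162 either end of the gene was used. Named are the 15 domains of largest mean covered length, the 10 lowest and 10 highest ratios among non-overlapping groups, up to 10 members of each gene list, 20 set genes, the 5 regions on either side of the width minimum, and up to 10 domains each that lost, gained or lacked H3K27ac. A representative part of these is described, and some are not reported here. The members and the gene lists were chosen with earlier results of these data known.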

Additional observations from a re-analysis of the deposited data

How the results depend on the processing

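Over 99 alternatives to the 9 summary results, 79 were counted as unchanged, 18 moved a value further and 2 turned it round. For H3K4me3 lengths unchanged means the same direction within the spread of the replicates, and for counts a similar size. For H3K27ac and H3K4me1, which make up 45 of the alternatives, it means only the same direction, whatever the size. Of these 45, 44 kept it, and their sizes varied as given below. None of the tests could pass a threshold under any of them. A width minimum of 3000 bp gave 2029 domains, 1634 of them lower in both TP-064 lists, and one of 6000 bp gave 80 and 49. Requiring 4000 bp in each list gave 147 domains and 88 lower, with a median log2 ratio of -0.14 and a ratio of total length of -0.14. Domains chosen by width in the TP-064 lists alone numbered 238, with 136 lower and ratios of -0.15 and -0.16. Those chosen in the replicate 2 lists and measured in the replicate 1 lists gave -0.13 and -0.18. Scaling each list to its median region, chosen after seeing the data, gave 179 lower, a median of 0.013, on the other side of 0, and a ratio of total length of -0.019. Here the cause is the scaling itself, which removes the shift common to all regions; the cause of the other moves was not tested.

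Leaving out each replicate in turn gave 381 to 568 domains, median ratios of -0.37 to -0.18, ratios of total length of -0.39 to -0.20 and 277 to 500 domains lower with TP-064. The lowest counts, 381 and 277, came without DMSO replicate 1. Domains were chosen again each time, so the set and the libraries change together. Likewise the H3K27ac difference ranged from -19.8 to 1.84 points of bp, turning round without DMSO replicate 1, and from -22.5 to -1.57 points of domains. H3K4me1 ranged from -32.7 to -6.39 points in the domains and from -28.0 to -9.01 in the flanks.

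Whether libraries with the same replicate number belong together is not stated. Across 568 domains, same-numbered libraries deviated together with correlations of 0.0896 for H3K4me3, 0.110 for H3K27ac and 0.000635 for H3K4me1. Such a correlation does not see a shift common to a whole library. H3K4me3 length was larger in replicate 1 in both treatments. Its median log2 ratio over replicate 2 was 0.114 with DMSO and 0.110 with TP-064. With the replicate number as a block the ratio of total length was -0.31 and the differences were -9.73 and -13.2 points for H3K27ac and -20.7 and -17.9 points for H3K4me1, with an exact sign-flip p of 0.5, the smallest that 2 pairs allow. Within replicates 1 and 2 the H3K27ac difference was -18.0 and -1.42 points of bp. Counts of list members in a domain were 96, 99 with gene ends within 2 kb and 103 with any part of the gene inside. Unknown depth limits every length given here.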

Other observations

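Domains away from any gene start lay at some B-cell and cancer genes. Within gene bodies they included RUNX1 (log2 ratio of covered length -0.44), BCOR (-0.55), ETS1 (-0.45), CIITA (-0.20), CD81 (-0.52) and NUMA1 (0.12). Between genes, the domain nearest to CCND2, 929 bp from the gene, had the lowest ratio of these, at -1.33, and the domain nearest to MYC, 50705 bp away, had -0.66. A domain inside ZCCHC7, the neighbour of PAX5, ran the other way at 0.63. No median shift was removed from these ratios. They were picked after their values were seen, and starts missing from the promoter table may lie in some of them.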
